A study of Homo sapiens with 10 samples.

Results

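The endoplasmic reticulum (ER) HSP70, HSP90 and J-domain chaperones are 10 genes whose products fold proteins in the lumen of the ER. They are HSPA5, HYOU1, SIL1, HSP90B1, DNAJB9, DNAJB11, SDF2L1, DNAJC3, DNAJC10 and DNAJC1, and they are the rows of the count table, 32738 in all, that carry these names. After genes with few counts were left out, 12733 remained to be tested, all 10 chaperones with them. HepG2, a human hepatoma cell line, was grown in 5 cultures left untreated and in 5 cultures treated with 2 µg/ml tunicamycin for 17 h, each replicate on its own day. The sample labels call the controls Control, the study calls them untreated, and the series' text calls them mock treated. The labels name no engineered change, and both conditions come from the same line. The mRNA was counted from its 3′ end with the QuantSeq method, which gives about a single fragment per transcript whatever its length, so that counts of different genes can be set side by side without a correction for length.

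The libraries held 4242538 to 4888292 counts in untreated cells and 2234682 to 5029864 counts in tunicamycin-treated cells, and mitochondrial transcripts took 22.7 to 25.2% and 18.3 to 28.8% of them. All 8 liver markers examined were present. Their summed level was 64912 to 83561 normalized counts in untreated libraries and 51663 to 58205 in treated ones. Of the 8, 5 were called lower (APOA1, APOB, TTR, TF and FGB) and 0 higher, where 16.6% of all genes tested were called lower and 17.6% higher. ALB, AFP and SERPINA1 were called neither (log2 fold changes 0.04, -0.16 and 0.08). Of 9 markers of leukocytes, endothelium and fibroblasts, 0 passed the filter, 3 had no count in any library, and the 9 summed to at most 8 counts in an untreated and 19 in a treated library. Of those 19, in tunicamycin replicate 4, 18 were counts of CDH5, which had none in any other library. A further listed marker, PECAM1, had no row in the count table. Untreated replicate 1 stood somewhat apart, holding the lowest untreated value in 30.1% of the genes tested and the highest in 26.1%, and all 10 chaperones kept their calls without it. A normalized count is a gene's count divided by its library's size, after TMM scaling, and brought to the mean library size. It measures a transcript relative to the others, so that fewer cells of a type and less RNA per cell cannot be told apart. Whether the fall of the 5 liver markers called lower has any part in the chaperone values was not tested.

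Tunicamycin blocks N-linked glycosylation, and proteins that enter the ER then misfold. HSP70 chaperones bind unfolded segments with ATP and release them again. J-domain proteins bring them clients and set off ATP hydrolysis, exchange factors remove the ADP, and HSP90 takes over partly folded clients. BiP, the product of HSPA5, also restrains the sensors of the unfolded protein response (UPR), which act on target promoters through the transcription factors ATF6, XBP1 and ATF4. ATF6 and XBP1 are known to act at short elements called ERSE, ERSE-II and UPRE.

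Exact copies of these elements were found in 5 of the promoters. The windows of HSPA5, HYOU1 and SDF2L1 are shown because they place the elements upstream of genes that differ in the size of their rise, and the short matches of HSP90B1 follow. The sequences are the bases upstream of the RefSeq start on GRCh38.p14, 5′ to 3′ on the strand of the gene, with element matches on either strand in capitals, and bases that GENCODE v44 places in an exon of the gene were left off. The HSPA5 stretch is chr9:125241383-125241593 (minus strand), that of HYOU1 is chr11:119057228-119057455 (minus strand), and that of SDF2L1 is chr22:21642052-21642301 (plus strand).
HSPA5: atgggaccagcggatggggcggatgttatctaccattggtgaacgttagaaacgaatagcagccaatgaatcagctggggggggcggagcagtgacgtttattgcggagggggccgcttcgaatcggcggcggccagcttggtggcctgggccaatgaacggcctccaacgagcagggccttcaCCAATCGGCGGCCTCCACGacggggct
HYOU1: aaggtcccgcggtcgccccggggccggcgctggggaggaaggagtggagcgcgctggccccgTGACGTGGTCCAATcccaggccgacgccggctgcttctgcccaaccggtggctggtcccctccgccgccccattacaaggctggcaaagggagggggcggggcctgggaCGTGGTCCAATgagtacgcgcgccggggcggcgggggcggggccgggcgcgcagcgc
SDF2L1: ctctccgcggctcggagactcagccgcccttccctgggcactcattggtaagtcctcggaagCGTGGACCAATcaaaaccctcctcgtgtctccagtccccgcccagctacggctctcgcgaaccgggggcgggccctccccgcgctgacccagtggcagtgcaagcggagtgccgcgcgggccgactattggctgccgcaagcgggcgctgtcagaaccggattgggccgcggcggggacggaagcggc

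The ERSE was searched as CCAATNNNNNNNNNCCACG, the ERSE-II as ATTGGNCCACG and the UPRE as TGACGTGG, on both strands of the 250 bases upstream of 35116 RefSeq starts. HSPA5 had an exact ERSE from 66 to 48 bases upstream of its start. HSP90B1 had 2, at chr12:103930216-103930234 and, on the opposite strand, at chr12:103930321-103930339, which lie 194 to 176 and 89 to 71 bases upstream of the RefSeq start. GENCODE places the gene's first base before both, with a first exon of another transcript around them, so that only the matches are shown, on the strand that reads as the element, with its fixed letters in capitals.
HSP90B1 distal: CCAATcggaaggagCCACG
HSP90B1 proximal: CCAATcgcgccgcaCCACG
HYOU1 had 2 copies of the ERSE-II, both reading ATTGGaCCACG, at 185 to 175 and 79 to 69 bases upstream, and the distal copy overlapped a UPRE at 188 to 181 bases. SDF2L1 had a single ERSE-II, ATTGGtCCACG, at 188 to 178 bases upstream, and DNAJC10 had a single UPRE at 125 to 118 bases upstream on the opposite strand. An exact ERSE was present upstream of 0.074% of all starts, an exact ERSE-II of 0.0513% and an exact UPRE of 0.612%. Among the 9685 tested genes matched to a promoter, the shares were higher, at 0.145%, 0.145% and 0.95%. The ERSE is known from promoters of HSPA5 and HSP90B1, so that its presence there is not a finding. These letters were not found in the windows of SIL1, DNAJB9, DNAJB11 and DNAJC3. The windows of SIL1 (chr5:139198369-139198618) and DNAJB11 (chr3:186570470-186570719) lie inside the GENCODE spans of these genes, so bases upstream of the GENCODE starts were not searched. DNAJC1 had no RefSeq window and was not searched. A match describes the letters only, and copies of an element that depart from these letters were not counted in any window.

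**Figure D1:**
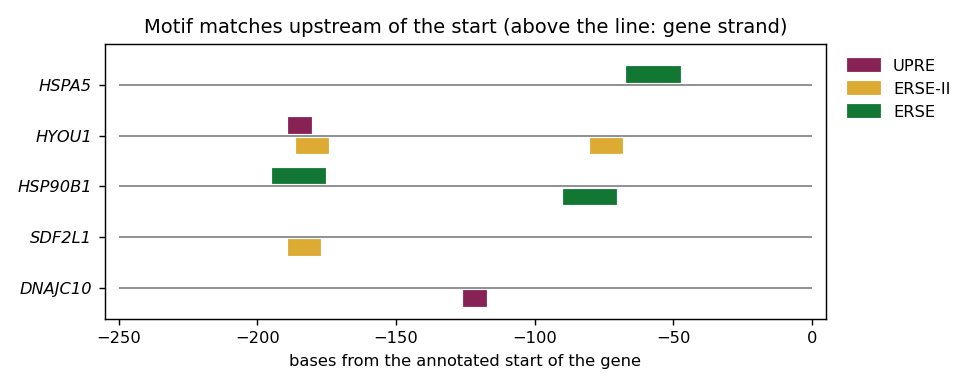
Matches of the ERSE, ERSE-II and UPRE letters in the 250 bases upstream of 5 chaperone genes, by distance in bases from the RefSeq start; boxes above a line are on the strand of the gene and boxes below on the other strand. HYOU1 and HSP90B1 each carry matches in both the distal and the proximal part of the window.

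The question of the comparison was which genes change when HepG2 cells suffer ER stress. All 10 chaperone genes were higher in tunicamycin-treated cells, by 1.5-fold for SIL1 to 13.5-fold for DNAJB9. Each of them passed edgeR's quasi-likelihood test with an adjusted p (Benjamini-Hochberg, over all genes tested) under 0.05, where 17.6% of all genes tested were called higher. None of the 10 was called lower, against 16.6% of all genes. The rise was more than 2-fold for 8 of the 10, against 5.09% of all genes called higher and more than 2-fold. In each of the 10, every treated library lay above every untreated one, which held for 11.7% of all genes. The median log2 fold change of the 10 was 1.95, and that of all genes tested was -0.00.

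HSPA5 encodes BiP (also called GRP78), the HSP70 of the ER lumen. In untreated replicates 1 to 5 it stood at 9289, 8304, 8528, 7735 and 8369 normalized counts, against 72113, 67031, 67703, 63811 and 60353 in tunicamycin replicates 1 to 5. The lowest treated library was 6.5 times the highest untreated one. Its level rose 7.84-fold (log2 fold change 2.97, SE 0.08, n = 5 per condition, edgeR adjusted p = 1.36e-14), and same-numbered pairs differed by 2.85 to 3.04 on the log2 scale, so that the pairs were close to each other. By normalized count per transcript it moved from rank 33 to rank 8 of all genes tested, and by log2 fold change it was in rank 35. The gene lies on chromosome 9 at 125234853 to 125241382 (GRCh38, minus strand), free of overlap with exons of other genes.

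HYOU1 encodes GRP170, a large relative of HSP70 that also acts as an exchange factor for BiP. It was at 1476, 1355, 1343, 1227 and 1445 normalized counts in the untreated and at 7355, 9081, 6475, 8419 and 8210 in the treated libraries. The conditions did not overlap, and tunicamycin replicates 1 and 3 were the lowest of the treated. The rise was 5.77-fold (log2 fold change 2.53, SE 0.10, n = 5 per condition, edgeR adjusted p = 1.13e-12). HYOU1 lies on chromosome 11 at 119044188 to 119057227 (minus strand), and its last exon overlaps an antisense long non-coding gene. The study names a pipeline at default settings but no strand setting, so that reads of such partners may not have been told apart.

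SIL1 encodes the other exchange factor of BiP, and it changed least. It was at 121, 149, 123, 116 and 151 normalized counts in untreated cells and at 216, 194, 210, 207 and 157 in treated cells. The groups almost touched, since treated replicate 5 was only 1.04 times untreated replicate 5, the highest of the untreated. The rise was 1.5-fold (log2 fold change 0.59, SE 0.12, n = 5 per condition, edgeR adjusted p = 0.000762). Pairs differed by 0.06 to 0.83 on the log2 scale, lowest in pair 5. That treated library was the shallowest, with 78 counts of SIL1 before normalization. The gene spans chromosome 5 from 138946724 to 139293557 (minus strand), and other genes overlap it only outside its last exon.

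HSP90B1 encodes GRP94, the HSP90 of the ER. It was at 3973, 4981, 5678, 5835 and 4924 normalized counts in untreated and at 30761, 37730, 34368, 33448 and 31465 in treated cells. Replicate 1 was the lowest library of each condition, and the lowest treated library was 5.27 times the highest untreated one. The rise was 6.61-fold (log2 fold change 2.72, SE 0.11, n = 5 per condition, edgeR adjusted p = 1.13e-12), and the gene went from rank 69 to rank 11 by normalized count. It lies on chromosome 12 at 103930107 to 103953931 (plus strand).

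**Figure D2:**
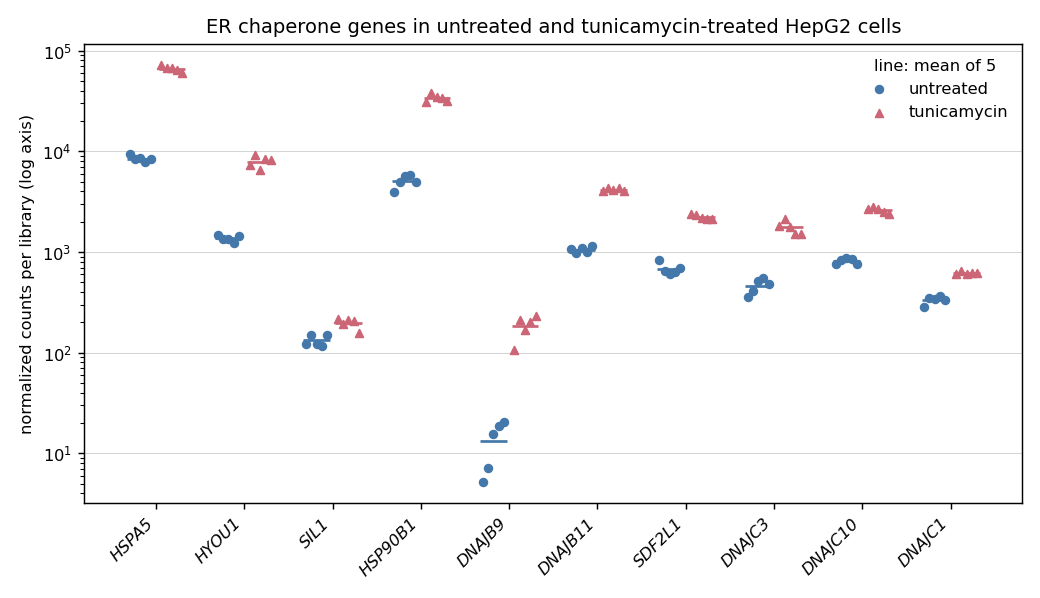
Normalized 3′ counts of the 10 chaperone genes in each library, on a log axis, with untreated libraries as circles, tunicamycin libraries as triangles, replicates 1 to 5 from left to right and a line at the mean of 5. No gene has a treated library below an untreated one, and SIL1 has the smallest gap between the conditions.

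All 5 J-domain proteins rose, by very different amounts. DNAJB9 (ERdj4), which directs misfolded proteins to degradation and acts on the stress sensor IRE1, had the fewest counts and the largest rise. It was at 5.16, 7.13, 15.7, 18.8 and 20.3 normalized counts in untreated cells, from 6, 8, 18, 21 and 20 counts, and at 106, 211, 167, 202 and 230 in treated cells. Untreated replicates 1 and 2 were below the other three, and the conditions did not overlap. The rise was 13.5-fold (log2 fold change 3.76, SE 0.27, n = 5 per condition, edgeR adjusted p = 5.1e-09). The spread between untreated libraries was 51.3% of their mean, against 6.62% for HSPA5, so that the size of the DNAJB9 rise is the least precise of the 10. The pairs ranged from 3.37 to 4.79 on the log2 scale, and pairs 1 and 2 were the highest. DNAJB9 lies on chromosome 7 at 108569867 to 108574850 (plus strand).

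DNAJB11 (ERdj3), a soluble J-domain protein that binds nascent and unfolded clients, had the smallest spread between treated libraries. It was at 1068, 967, 1082, 996 and 1153 normalized counts in untreated and at 3984, 4284, 4124, 4275 and 4066 in treated cells. The treated libraries spread by 3.16% of their mean and the untreated by 6.99%, and every treated one was above every untreated one. The rise was 3.94-fold (log2 fold change 1.98, SE 0.08, n = 5 per condition, edgeR adjusted p = 1.43e-12). It lies on chromosome 3 at 186567403 to 186585800 (plus strand). Its last exon overlaps an exon of another gene that GENCODE annotates on the same strand, so that its counts are uncertain where the counting could split them. SDF2L1, a partner of DNAJB11 in a complex of the ER lumen, was at 838, 643, 602, 639 and 686 normalized counts and rose to 2399, 2307, 2166, 2125 and 2125. Untreated replicate 1 was the highest of its group, yet well below all treated libraries. The rise was 3.26-fold (log2 fold change 1.71, SE 0.10, n = 5 per condition, edgeR adjusted p = 1.7e-10). This short gene lies on chromosome 22 at 21642302 to 21644299 (plus strand).

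DNAJC3 (ERdj6, also p58IPK), which binds unfolded proteins in the lumen, was at 355, 409, 516, 547 and 481 normalized counts in untreated and at 1825, 2138, 1784, 1504 and 1523 in treated cells. Replicates 1 and 2, the lowest untreated libraries, were the highest treated ones, and the pairs therefore ranged from 1.46 to 2.38 on the log2 scale. The rise was 3.81-fold (log2 fold change 1.93, SE 0.12, n = 5 per condition, edgeR adjusted p = 8.74e-10). It lies on chromosome 13 at 95677139 to 95794988 (plus strand). DNAJC10 (ERdj5), a J-domain protein with thioredoxin domains that reduces disulfides of misfolded proteins, was at 766, 831, 861, 843 and 759 normalized counts and rose to 2667, 2793, 2665, 2473 and 2361. Both groups were tight and far apart. The rise was 3.19-fold (log2 fold change 1.67, SE 0.08, n = 5 per condition, edgeR adjusted p = 2.28e-11). It lies on chromosome 2 at 182716255 to 182794464 (plus strand), and a ribosomal protein pseudogene of the same strand overlaps its last exon.

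DNAJC1 (ERdj1), a membrane protein whose cytosolic part binds ribosomes, had the smallest rise of the 5 J-domain proteins. It was at 284, 350, 341, 369 and 335 normalized counts in untreated and at 598, 652, 601, 618 and 621 in treated cells. The conditions were apart by 1.62 times at the nearest libraries. The rise was 1.84-fold (log2 fold change 0.88, SE 0.09, n = 5 per condition, edgeR adjusted p = 3.01e-07). The gene spans chromosome 10 from 21756548 to 22003769 (minus strand). By log2 fold change DNAJC1 was in rank 1015 and SIL1 in rank 1876 of all genes tested, whereas the other members were in ranks 20 to 221.

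**Figure D3:**
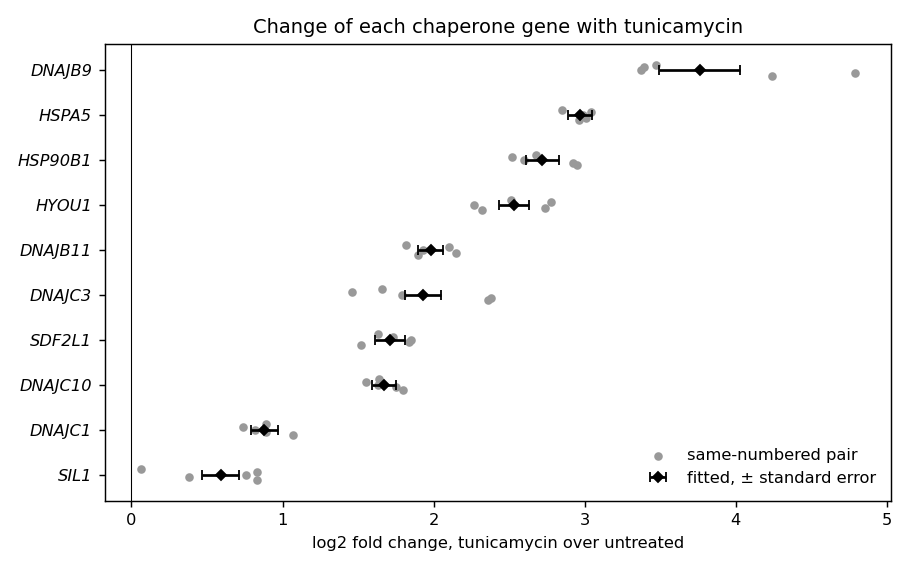
Log2 fold change of each chaperone gene with tunicamycin, as fitted by edgeR with its standard error (black) and as the difference within each same-numbered pair of libraries (grey). All pairs lie right of 0, and DNAJB9, DNAJC3 and SIL1 have the widest spread between pairs.

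The order of the members by mean normalized 3′ count was the same in both conditions. It ran from HSPA5 over HSP90B1, HYOU1, DNAJB11, DNAJC10, SDF2L1, DNAJC3, DNAJC1 and SIL1 to DNAJB9. The libraries of DNAJC10 and SDF2L1 overlapped in both conditions, those of DNAJC3 and DNAJC1 in untreated cells only, and those of SDF2L1 and DNAJC3 and of SIL1 and DNAJB9 in treated cells only, so that the order within these neighbours does not stand beyond the spread. The mean of the highest member was 628 times that of the lowest in untreated cells and 361 times in treated cells.

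Together the 10 genes took 0.432, 0.423, 0.450, 0.436 and 0.425% of the library in untreated replicates 1 to 5, against 2.87, 2.86, 2.70, 2.39 and 2.46% after treatment. The mean went from 0.433% ± 0.0106 to 2.66% ± 0.224 (SD, n = 5 per condition, two-sided exact permutation p = 0.00794, the smallest that 5 libraries against 5 allow). HSPA5 alone took 0.199% of the counts on average in untreated cells and 1.47% in treated cells, and HSP90B1 took 0.12% and 0.746%. HSPA5 made up 46.0% ± 3.25 of the counts of the 10 genes in untreated cells and 55.4% ± 2.35 in treated cells (SD, n = 5 per condition, exact permutation p = 0.00794). Its share was higher in every treated than in every untreated library. For these shares and for the ratios that follow, 5 same-numbered pairs can give no exact p below 0.0625, and each result with p = 0.00794 had that value within pairs.

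Most of the other members lost transcripts relative to HSPA5, as did most genes. Ratios of counts within a library need no scaling between libraries, and 9 were tested, with Benjamini-Hochberg values over the 9. DNAJB11, DNAJC3, DNAJC10, DNAJC1, SDF2L1, SIL1 and HYOU1 each had fewer counts per HSPA5 count in every treated than in every untreated library (exact permutation p = 0.00794, adjusted 0.0102 for each). Of all other genes tested, 93.6% did so, so that the count of 7 in 9 is no result about the members, and the sizes below are a description. The largest shift was that of the exchange factor SIL1, from 63.9 HSPA5 counts per SIL1 count in untreated cells to 336 in treated cells (log2 difference -2.40). For the ribosome-binding DNAJC1 the number of HSPA5 counts per count went from 25.1 to 107 (log2 difference -2.09).

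For the soluble J-domain proteins the shifts were smaller. The number of HSPA5 counts per count went from 10.4 to 25.5 for DNAJC10 (log2 difference -1.30), from 18.5 to 38.0 for DNAJC3 (log2 difference -1.04) and from 8.02 to 15.9 for DNAJB11 (log2 difference -0.99). SDF2L1 went from 12.4 to 29.7 HSPA5 counts per count (log2 difference -1.26). HYOU1, the larger HSP70 relative, stayed nearest among these 7, at 6.17 in untreated and 8.41 in treated cells (log2 difference -0.45).

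HSP90B1 and DNAJB9 did not pass this test, which leaves the pairs out of account. Within pairs, both had the same exact permutation p = 0.0625 as the other members. HSPA5 had 1.68 counts per HSP90B1 count in untreated and 1.97 in treated cells, and the libraries overlapped (log2 difference -0.24, exact permutation p = 0.167, adjusted 0.167), although the ratio moved the same way in all 5 pairs. Without untreated replicate 1 the log2 difference was -0.36 (exact permutation p = 0.0159), and without untreated replicate 4 it was -0.15 (exact permutation p = 0.333). DNAJB9 was the only member with more counts per HSPA5 count after treatment, at 688 HSPA5 counts per DNAJB9 count in untreated and 372 in treated cells. Its libraries overlapped too (log2 difference 0.89, exact permutation p = 0.143, adjusted 0.161, up in 5 of 5 pairs), and without tunicamycin replicate 1 the difference was 1.10 (exact permutation p = 0.0476). It was 0.57 without untreated replicate 1 (exact permutation p = 0.286).

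**Figure D4:**
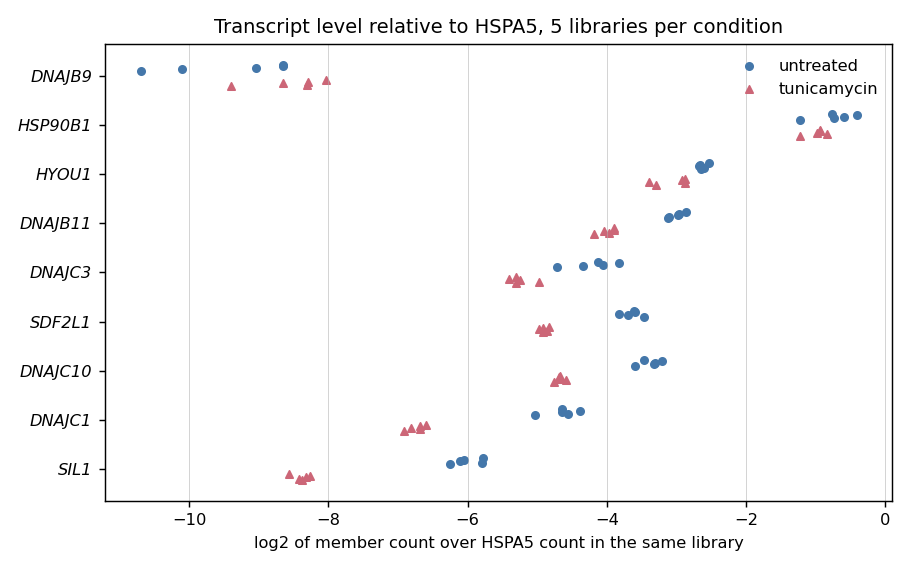
Log2 of each member's count over the HSPA5 count of the same library, for 5 untreated libraries (circles) and 5 tunicamycin libraries (triangles). For 7 genes all treated libraries lie left of all untreated ones; the groups overlap for HSP90B1 and DNAJB9.

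Members of the same families that work in the cytosol or in mitochondria were called in both directions. The list held 30 genes, which were such chaperones, their cofactors, and HSPD1 and HSPE1, mitochondrial chaperonin genes of other families. Of these, 29 were tested (HSPA2 had too few counts). Of the 29, 8 were called higher, 5 lower and 16 neither, with a median log2 fold change of 0.13. The share called lower was near the 16.6% of all genes tested, and 17.6% of all genes were called higher. Without untreated replicate 2 or without tunicamycin replicate 5, only 3 were called lower. The largest rises were those of HSPA9, the mitochondrial HSP70 (log2 fold change 1.34, SE 0.10, edgeR adjusted p = 6.24e-09), HSPA8, the constitutive cytosolic HSP70 (1.03, SE 0.19, adjusted p = 2.98e-04), and the HSP70 cofactor BAG3 (0.76, SE 0.21, adjusted p = 0.00768). The largest falls were those of the cytosolic HSP90 HSP90AA1 (-0.73, SE 0.10, edgeR adjusted p = 1.07e-05), the J-domain protein DNAJB1 (-0.57, SE 0.09, adjusted p = 1.19e-04) and HSPA4L, a cytosolic relative of HYOU1 (-0.44, SE 0.13, adjusted p = 0.0154). HSP90AB1, the other cytosolic HSP90, was at 10812 ± 1260 and 11344 ± 1695 normalized counts (SD, n = 5 per condition) and did not pass (log2 fold change 0.07, edgeR adjusted p = 0.65).

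Ratios of an ER gene to its counterpart in the same library were tested for 6 pairs of genes, with Benjamini-Hochberg values over the 6. The ER form gained on its counterpart in 5 of the 6, with no overlap between conditions (exact permutation p = 0.00794, adjusted 0.00953 for each). Most genes lost counts in this way against the same ER genes: 93.6% against HSPA5, 93.0% against HSP90B1, 91.1% against HYOU1, 86.2% against DNAJB11 and 33.6% against SIL1. The gains are therefore not particular to these counterparts. HSP90B1 had 0.468 counts per HSP90AB1 count in untreated cells and 2.98 in treated cells, so that by 3′ count the ER form went from the less to the more abundant of these HSP90 transcripts (log2 difference 2.67). HYOU1 went from 1.82 to 14.1 counts per count of HSPH1, the cytosolic HSP110 (log2 difference 2.96). HSPH1 itself fell by 0.40 on the log2 scale (edgeR adjusted p = 0.0188), a call that was lost without untreated replicate 2 (adjusted p = 0.0535), tunicamycin replicate 3 (0.0565) or tunicamycin replicate 5 (0.0533).

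HSPA5 went from 32.3 to 120.0 counts per HSPA8 count (log2 difference 1.89) and from 14.4 to 44.6 per HSPA9 count (log2 difference 1.63), while HSPA8 and HSPA9 both rose themselves. DNAJB11 went from 2.46 to 9.44 counts per count of the cytosolic J-domain protein DNAJA1 (log2 difference 1.94). SIL1 had 1.03 counts per count of HSPBP1, an exchange factor of the cytosolic HSP70, in untreated and 1.33 in treated cells. These libraries overlapped (log2 difference 0.37, exact permutation p = 0.19, adjusted 0.19, up in 4 of 5 pairs). HSPA8 has many near-identical processed copies in the genome, so its counts are uncertain.

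Other ER genes tied to the HSP70 and HSP90 cycle were mixed. The list took in ER J-domain proteins with a lumenal or a cytosolic J domain, so its counts and median are not those of lumenal partners alone. Of 13 such genes, all tested, 6 were called higher, 1 lower and 6 neither, with a median log2 fold change of 0.16, where 17.6% of all genes were called higher and 16.6% lower. MANF, a lumenal protein that binds BiP, went from 591 ± 165 to 5447 ± 1083 normalized counts (SD, n = 5 per condition, log2 fold change 3.20, SE 0.19, edgeR adjusted p = 3.19e-10). FICD, the enzyme that places AMP on BiP and removes it, rose from 30.7 ± 10.8 to 126 ± 32 (log2 fold change 2.07, SE 0.21, edgeR adjusted p = 4.98e-07). SLC35B1, a carrier that brings ATP into the ER, rose from 694 ± 116 to 1948 ± 176 (log2 fold change 1.49, SE 0.11, edgeR adjusted p = 7.75e-09). CNPY2, a saposin-like ER protein, was lower in all 5 pairs, at 721 ± 20.6 and 539 ± 28.1 (log2 fold change -0.42, SE 0.08, edgeR adjusted p = 3.47e-04).

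Of the sensors, transcription factors and classical targets of the UPR, 35 genes with 7 of the members among them, 34 were tested, and 30 were called higher, 1 lower and 3 neither, again beside 17.6% and 16.6% of all genes. Without the 7 members, 23 of 27 were called higher and the median log2 fold change was 1.13. The largest rises outside the members were those of HERPUD1, a membrane component of ER-associated degradation (2.78, SE 0.11, edgeR adjusted p = 1.13e-12), the oxidase ERO1LB (2.45, SE 0.17, adjusted p = 2.44e-09) and the disulfide isomerase PDIA4 (2.43, SE 0.11, adjusted p = 7.75e-12). XBP1, whose 3′ counts do not tell its spliced from its unspliced form, was the gene called lower, at 686 ± 89.7 normalized counts in untreated and 343 ± 42 in treated cells (SD, n = 5 per condition, log2 fold change -1.01, edgeR adjusted p = 6.91e-07). The 3 genes that did not pass, named after their values were seen, were ATF4 (-0.03, adjusted p = 0.823), ERO1L (0.20, adjusted p = 0.11) and WFS1 (-0.04, adjusted p = 0.816).

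The genes whose pattern over the 10 libraries was nearest to that of HSPA5 were sought among genes with a mean of at least 100 normalized counts, by the root mean square difference in log2 level after both were centred on their untreated means. Outside the members, CCPG1, a receptor for autophagy of the ER, was nearest at 0.17, followed by HERPUD1 at 0.25, AKNA at 0.36, PDIA4 at 0.46 and MAP1B, a microtubule-associated protein, at 0.46. CCPG1 was at 154, 202, 212, 180 and 178 normalized counts in untreated and at 1452, 1480, 1367, 1245 and 1231 in treated cells. Its treated libraries, like those of HSPA5, were highest in replicates 1 to 3 and lowest in 5. Among the members HSP90B1 was nearest at 0.27 and HYOU1 next at 0.35, and DNAJC1 at 1.49 and SIL1 at 1.70 were farthest. DNAJB9 was under the minimum level.

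Exact copies of the elements shown above were then set against the changes in all genes tested whose RefSeq promoter could be matched by symbol, 9685 in all. An ERSE was found upstream of 14 of them, 2 being members, and 11 of the 14 (78.6%) were called higher and 1 lower, with a median log2 fold change of 1.43. An ERSE-II was found upstream of 14, 2 being members, with 7 (50.0%) called higher, 0 lower and a median of 0.50. A UPRE was found upstream of 92, with 29 (31.5%) called higher, 12 lower and a median of 0.13. Of all 12733 genes tested, 17.6% were called higher and 16.6% lower, and the shares among the 9685 alone were not computed. The ERSE group holds genes from which the element is known, so the shares of the carriers are a description and not independent evidence. Carriers were counted by gene on both strands, so that a match lying between neighbouring starts would count for both genes. Such shared matches were not sought. The shorter CCAAT alone was present on either strand in all 9 member promoters examined, against 32.0% of all RefSeq promoters, and more than once in 5 of the 9, against 9.53%. These 2 shares are over all 35116 starts, and the share among the genes tested was not computed, so the difference is a description.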

How the data were processed

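The authors mapped the 3′ reads with the nf-core RNA-Seq pipeline at default settings to hg19 with Ensembl annotation and deposited raw counts per gene; the aligner, the counter and the strand setting are not named in the sources used here. The files give no hg19 coordinates, and positions are from GENCODE v44 and RefSeq on GRCh38, matched by Ensembl identifier or symbol. Genes were filtered with filterByExpr (minimum count 2, minimum total 10), as in the study, scaled by TMM and tested for condition with edgeR 4.0.16 (R 4.3.3), with a threshold of 0.05 on adjusted p. DESeq2 1.42.0, other scalings and filters, thinning to the smallest library, leaving out each library and a replicate block were alternatives. Ratios used a pseudocount of 0.5 and exact permutation (scipy 1.17.1). Named genes were the members, both genes of each ratio, the 3 largest changes per list and direction, and the 5 genes most like HSPA5. Members and lists were chosen with earlier results of these data known. The scripts were tested on simulated data. Each replicate experiment had its own day per the series' text, so same-numbered libraries were taken as pairs; their deviations from the group means correlated at r = 0.329, 0.00259, 0.0907, 0.153 and 0.109 over 9711 genes.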

Additional observations from a re-analysis of the deposited data

Results flagged for a closer look

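The log2 ratio of HSPA5 to HSPA8 in tunicamycin replicate 1 was 7.57, against 6.63 to 6.84 in the other treated libraries, a gap that is large for 5 values. It was the only such gap among the 96 groups of 5 libraries examined, of which chance alone would give about 1 in 20, or 4.8.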

How the results depend on the processing

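All 200 recomputed member changes (10 genes, 20 alternatives) kept their direction and an adjusted p under 0.05, with log2 fold changes from 0.51 for SIL1 to 3.94 for DNAJB9 and a highest adjusted p of 0.00342. Scaling by library size alone moved the median log2 fold change of all genes to -0.083 and the calls to 1774 higher and 2570 lower (40.8% higher, against 51.4% with TMM). The fit with a replicate block changed no member call and called 4811 genes, against 4353 without it. For the ratios and shares, the replicate block (an exact permutation within pairs) gave p = 0.0625, the smallest that 5 pairs allow, at the same values: 1.89 (HSPA5 over HSPA8), 1.63 (HSPA5 over HSPA9), 2.67 (HSP90B1 over HSP90AB1), 2.96 (HYOU1 over HSPH1) and 1.94 (DNAJB11 over DNAJA1), then, over HSPA5, -0.45 (HYOU1), -2.40 (SIL1), -0.99 (DNAJB11), -1.26 (SDF2L1), -1.04 (DNAJC3), -1.30 (DNAJC10) and -2.09 (DNAJC1), and 2.22 and 9.49 percentage points for the library share of the 10 genes and the HSPA5 share among them. HSP90B1 over HSPA5 (-0.24) and DNAJB9 over HSPA5 (0.89) had the same exact permutation p = 0.0625 within pairs. Leaving out 1 library moved the log2 ratio of HSP90B1 over HSPA5 between -0.36 and -0.15 and that of DNAJB9 over HSPA5 between 0.57 and 1.10. It moved the number of counterparts called lower between 3 and 5. The cause was not tested. Depth limits DNAJB9, with 6 to 21 counts in untreated libraries, and SIL1, with as few as 78 in a treated one.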

Other observations

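Of 5 genes outside the lists with an exact ERSE upstream of their start, 3 were called higher and 2 neither. Of all genes tested, with or without a matched promoter, 17.6% were called higher and 16.6% lower. With so few carriers, these counts and those of the ERSE-II below are a description. A match shared by neighbouring genes would count for each of them, so the carriers need not be independent. SERP1, which steadies membrane proteins at the translocon, was higher in treated cells by 1.45 on the log2 scale (edgeR adjusted p = 2.77e-10), EIF2A by 0.70 (adjusted p = 1.24e-05) and TRIM5 by 1.10 (adjusted p = 0.00748). ALG12, a mannosyltransferase of the N-glycan precursor pathway, was at 0.19 (edgeR adjusted p = 0.253) and ZNF17 at 0.46 (adjusted p = 0.327), and neither passed. Of 11 carriers of an ERSE-II outside the lists, 4 were called higher and 7 did not pass. The 4 were NAV2 (log2 fold change 0.98, edgeR adjusted p = 1.24e-05), the Golgi calcium-binding protein gene NUCB1 (0.77, adjusted p = 2.87e-06), CAMTA1 (0.73, adjusted p = 2.52e-04) and the histidine methyltransferase gene SETD3 (0.51, adjusted p = 0.00364), and the 7 lay between -0.21 and 0.50.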
